A study of Mus musculus with 24 samples.

Results

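Ly6Chi monocytes of sham-treated wt and N2ΔMy mice were compared by RNA-seq, to ask how these cells differ between the genotypes when no inflammation has been induced. The comparison holds 8 of the 24 libraries of the series, namely the 4 libraries labelled wild type and the 4 labelled Notch2 mutant among the Ly6Chi sham samples, and its members follow from these labels. The mice were on a C57BL/6 background, 8 to 10 weeks old, and carried a GFP reporter at one Cx3cr1 allele in both genotypes. N2ΔMy mice in addition had both Notch2 alleles flanked by lox sites and Cre recombinase expressed from the Lyz2 locus, and the wt mice were their littermates. Sham mice received Vaseline crème on depilated skin and blood was taken on day 5. The methods of the study describe a sham crème but call the control mice of the sequencing untreated, so what they received is given here as labelled. The cells were sorted from peripheral blood as lineage-negative CD11b+ GFP+ CD115+ Ly6Chi cells without CD43 or MHC-II. The other 16 libraries, from Ly6Chi and Ly6Clo cells of mice given the TLR7 agonist imiquimod, are used only where named.

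The model has limits that belong to every value below. The Lyz2 promoter is active in monocytes, neutrophils and macrophages, so deletion is not confined to the sorted cells. Whether the wt littermates carried Cre is not given in the sources used here, so Notch2 loss and the Cre allele cannot be told apart if they did not. Which Notch2 exons the lox sites flank is not given either, and the deposited value of the gene covers all its exons. In sorted populations a smaller share of cells expressing a gene cannot be told apart from less RNA of that gene per cell.

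Notch receptors are cleaved after binding a ligand on a neighbouring cell, and the freed intracellular part enters the nucleus and switches on target genes together with the DNA-binding protein RBPJ. In blood, classical Ly6Chi monocytes are the precursors of patrolling Ly6Clo monocytes, and Notch2 signalling together with the nuclear receptor Nr4a1 is known for its part in that conversion. Ly6Chi monocytes also enter tissues, where they can become macrophages.

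Values are normalized counts, that is, read counts per gene scaled between libraries by the authors and rounded to whole numbers. Reads on genes inferred from the spacing of these numbers lay between 9522720 and 19759572 per library, with medians of 13507424 in wt and 13245337 in N2ΔMy libraries. Replicates 1 and 2 of each genotype belonged to a first series of library numbers and replicates 3 and 4 to a second. Log2 values of libraries of 1 genotype correlated across genes at 0.970 to 0.982 within a series and at 0.955 to 0.962 between series, where genes are not independent replicates. The fold changes below are differences of mean log2(value + 1) in N2ΔMy minus wt libraries, from limma with the replicate number as a block. A gene was called where its p, adjusted by Benjamini-Hochberg, did not exceed 0.05 and its log2 fold change was 0.6 or more in size. Tested were the 11230 of 53715 genes that reached 50 in 1 or more of the 24 libraries.

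The 8 libraries carried the genes of the sort. Itgam, Csf1r, Cx3cr1 and Ly6c2, genes of the gate, and Ptprc, which codes for the leukocyte antigen CD45, together summed to between 61719 and 68279 in wt and between 59393 and 65890 in N2ΔMy libraries. Of the cell type markers, Cd3e, Cd3g, Trac, Ms4a1, Camp and Ngp were listed at 0 in all 8 libraries, and Ly6g reached at most 1. The 16 T and NK cell markers summed to at most 94 in any library, the 7 erythroid markers to at most 372 and the 8 platelet markers to at most 121. The 18 neutrophil markers summed to between 6675 and 7223 in wt and to between 6118 and 6668 in N2ΔMy libraries, most of it from Csf3r and Mmp8. The 10 B cell markers summed to between 2060 and 3228 in wt and between 2152 and 3879 in N2ΔMy libraries, most of it from Ighm, while Ms4a1 was at 0. Of the 8 genes of proteins that the gate excludes 4 were tested, with Spn lower and H2-Aa, H2-Ab1 and H2-Eb1 higher at an unadjusted p under 0.05, as described below with their groups. The Y-linked genes Kdm5d, Ddx3y, Uty and Eif2s3y reached at most 1 and Xist lay between 7193 and 11263 in these libraries, so that the genotypes did not differ in sex by these genes.

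Between the genotypes 3 of the 11230 genes were called, 1 higher and 2 lower in N2ΔMy cells, which is 0.0267% of the genes tested. They were Lyz1, higher, and Notch2 and Lyz2, lower. The count depended on the fit, with 21 genes called at a minimum of 50 in at least 4 libraries, 10 with all 24 libraries in 1 fit and 1 without the trend of variance on level. Notch2 is the gene deleted in the cross, Lyz2 the locus that holds Cre, and Lyz1 the neighbour and near copy of Lyz2. With Maf, Nod1 and Tet2, whose changes were smaller, 6 genes (0.0534%) had an adjusted p up to 0.05. At an unadjusted p under 0.05 there were 1372 genes (12.2%), of which 700 (6.23% of those tested) were higher and 672 (5.98%) lower in N2ΔMy cells, and these shares are the background for every count below. Without the block 264 were higher and 321 lower. The median SE of a log2 fold change was 0.13, and for 65.8% of the genes the 95% interval of the fold change lay inside -0.60 to 0.60, so that for these genes a change of the called size is outside the interval.

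**Figure D1:**
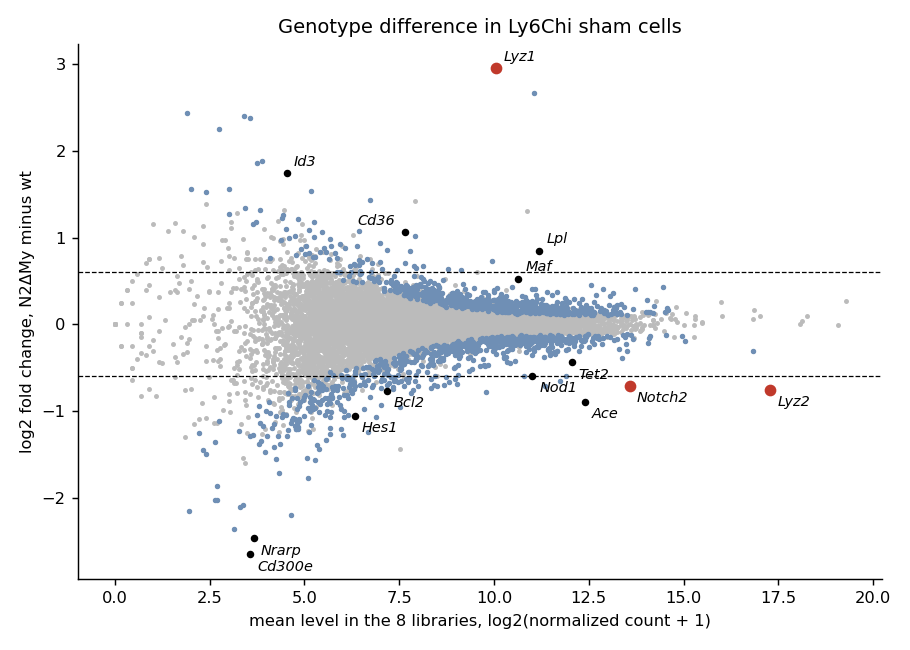
Log2 fold change of N2ΔMy minus wt Ly6Chi sham cells (vertical axis) against the mean level over the 8 libraries, log2(normalized count + 1) (horizontal axis), for the 11230 genes tested. Red points are the 3 called genes, blue points the genes at an unadjusted p under 0.05, black points other genes named in the text, and dashed lines mark 0.60 in either direction. Lyz1 lies at 2.95, and the blue point near it is Gm24270, named after its values were seen, for which N2ΔMy library 3 (14146) lies far above the other 7 (99 to 1086).

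Notch2 (ENSMUSG00000027878.11, chromosome 3 of GRCm38, 98013527 to 98150361, plus strand) is the targeted gene. Its values were 16041, 13799, 16214 and 14790 in wt libraries 1 to 4 and 10165, 8603, 9428 and 8996 in N2ΔMy libraries 1 to 4. The groups did not overlap, and each N2ΔMy library lay below the wt library of the same number. The N2ΔMy mean of 9298 ± 669 (SD, n = 4) was 61.1% of the wt mean of 15211 ± 1140 (SD, n = 4). The log2 fold change was -0.71 (SE 0.05, 95% interval -0.82 to -0.60, limma adjusted p = 8.5e-04). A two-sided exact permutation test over the 70 assignments of the libraries gave p = 0.0286, the smallest that 4 libraries against 4 allow. The difference was -0.67 in the first series and -0.75 in the second. After imiquimod, in other libraries, it was -0.87 (SE 0.07), and the difference between both values was -0.16 (SE 0.08).

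Notch2 was the most abundant of the 4 receptor genes in both genotypes. Per kilobase of exon, it lay between 1280 and 1500 normalized counts in wt and between 798 and 943 in N2ΔMy libraries, and Notch1 between 224 and 237 and between 199 and 239. Notch1 (chromosome 2, 26457903 to 26516663) was at 3380, 3185, 3272 and 3287 in wt and at 3393, 3296, 3408 and 2829 in N2ΔMy libraries, so that the groups overlapped. Its log2 fold change was -0.03 with a 95% interval of -0.16 to 0.11. Notch3 was listed at 0 in all 8 libraries and Notch4 at 5 to 20, under the level tested. Of the 5 ligand genes only Jag1 was tested, at 30 to 85 in wt and 40 to 75 in N2ΔMy libraries, with a log2 fold change of 0.10 (SE 0.35), and Dll1, Dll3, Dll4 and Jag2 reached at most 7.

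The genes that process Notch receptors or act with them in the nucleus differed little. Of 34 such genes, all tested, 0 were called, 3 were higher and 4 lower at an unadjusted p under 0.05 (1 and 1 without the block), and the median log2 fold change was 0.02, against 0.01 over all genes tested. Rbpj, the DNA-binding partner of the receptors, was at 600, 540, 924 and 849 in wt and at 668, 850, 1045 and 1011 in N2ΔMy libraries (log2 fold change 0.31, SE 0.09, limma adjusted p = 0.28). It was higher in each N2ΔMy library than in its wt partner, while the groups overlapped. Spen, a corepressor that acts with Rbpj, had the smallest p of the list, with 7131, 6877, 6755 and 6915 in wt and 6578, 5632, 5871 and 5582 in N2ΔMy libraries (log2 fold change -0.23, SE 0.05, limma adjusted p = 0.19). Adam10, the protease that makes the first of the activating cuts, had a log2 fold change of 0.16 (SE 0.06).

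**Figure D2:**
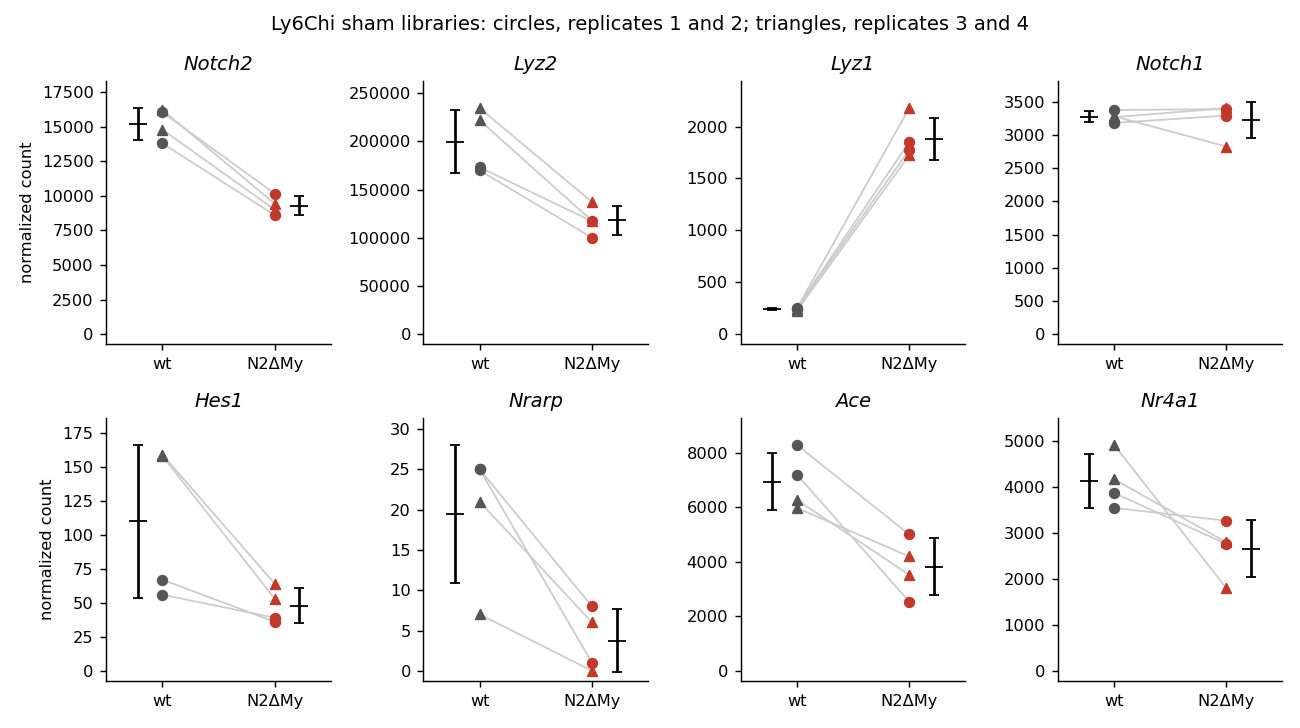
Normalized counts (vertical axes, from 0) of 8 genes in the 4 wt (grey) and 4 N2ΔMy (red) libraries of Ly6Chi sham cells. Circles are replicates 1 and 2, triangles replicates 3 and 4, lines join libraries of the same number, and bars show mean ± SD. Notch2, Lyz2, Lyz1, Ace and Nr4a1 show no overlap between the genotypes, Hes1, Nrarp and Notch1 overlap.

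The 16 Notch target genes listed were mostly silent or scarce in these cells. Hes5, Hey1, Heyl and Dtx1 were listed at 0 in all 8 libraries, and Hey2, Hes7, Gata2 and Il7r stayed under the level tested. Of the 8 tested, 0 were called, 3 were lower (Hes1, Nrarp and Cd300e) and 2 higher (Cdkn1a and Id3) at an unadjusted p under 0.05, and the median log2 fold change was 0.15. Hes1 and Cd300e are also counted in the list of patrolling genes below, and whether Cd300e is a Notch target was not tested. The members therefore did not share a direction, and the sign of the median was not stable, at -0.02 within the first series, -0.11 within the second and -0.21 without replicate 3.

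Hes1, a transcriptional repressor and a direct Notch target in many cells, was at 56, 67, 159 and 158 in wt and at 39, 36, 64 and 53 in N2ΔMy libraries. Each N2ΔMy library lay below its wt partner, although the highest N2ΔMy value exceeded the lowest wt value, since the wt libraries of the second series stood well above those of the first. The log2 fold change was -1.06 (SE 0.25, limma unadjusted p = 0.0025, adjusted p = 0.22), with -0.69 in the first series and -1.43 in the second. Nrarp, which codes for a feedback inhibitor of Notch signalling, was at 25, 25, 21 and 7 in wt and at 8, 1, 6 and 0 in N2ΔMy libraries. These counts are close to the detection limit, and the group means were 19.5 ± 8.54 and 3.75 ± 3.86 (SD, n = 4 each). Its log2 fold change was -2.47 (SE 0.48, limma adjusted p = 0.18), on a scale where adding 1 understates changes of low genes, and it was -1.09 with a pseudocount of 10 and -3.52 with 0.1.

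Cd300e, an activating receptor of patrolling monocytes, was at 8, 7, 54 and 11 in wt and at 2, 1, 4 and 0 in N2ΔMy libraries. All N2ΔMy values lay under all wt values, and wt library 3 stood far above the rest. The log2 fold change was -2.66 (SE 0.49, limma adjusted p = 0.16), and -3.01 to -2.35 over the fits that leave out 1 replicate number. At counts this low the value depended on the pseudocount, with -1.12 for 10 and -3.79 for 0.1, and on the libraries, with -1.79 in the first series, -3.52 in the second and a call with all 24 libraries in 1 fit (adjusted p = 0.027). Cdkn1a, which codes for the cell cycle inhibitor p21, was higher, with 164, 189, 100 and 162 in wt and 291, 282, 194 and 228 in N2ΔMy libraries (log2 fold change 0.71, SE 0.15, limma adjusted p = 0.18). Id3, an inhibitor of basic helix-loop-helix factors, was at 24, 16, 1 and 9 in wt and at 32, 23, 33 and 39 in N2ΔMy libraries, with 0.45 in the first series and 3.04 in the second. Hes6, Myc and Ccnd1 overlapped between the genotypes, with log2 fold changes of 0.00 (SE 0.16), 0.30 (SE 0.29) and 0.32 (SE 0.52).

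The largest change of a called gene was at the lysozyme locus. Lyz2 and Lyz1 code for the M and P forms of lysozyme, an enzyme that cleaves bacterial cell walls, and lie next to each other on the minus strand of chromosome 10, with 5475 bases between them. In the Lyz2Cre allele the Cre sequence is placed in the Lyz2 gene at its start of translation. The coding sequences of both genes have 447 bases, of which 425 (95.1%) are identical, so the first 180 bases are shown, from the GENCODE annotation of GRCm38, with the 15 differing bases in capitals.
Lyz1 coding: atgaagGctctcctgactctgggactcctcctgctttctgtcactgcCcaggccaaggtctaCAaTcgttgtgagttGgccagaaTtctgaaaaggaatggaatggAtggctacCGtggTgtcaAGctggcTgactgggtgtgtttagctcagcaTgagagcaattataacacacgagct
Lyz2 coding: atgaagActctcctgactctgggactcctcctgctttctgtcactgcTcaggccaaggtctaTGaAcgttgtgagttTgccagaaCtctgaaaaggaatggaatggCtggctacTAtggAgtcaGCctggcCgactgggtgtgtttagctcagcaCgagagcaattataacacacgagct

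Reads of 75 bases can tell most of both transcripts apart. Of the 1189 windows of 75 bases in the Lyz1 transcript, 74 (6.22%) also occur in the Lyz2 transcript without a mismatch. How the authors' counting treated reads that match both genes is not given in the sources used here, so the split of these reads between the genes is uncertain.

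Lyz2 (ENSMUSG00000069516.8, 117277331 to 117282321) was at 169977, 173185, 221934 and 234527 in wt and at 100067, 117119, 117574 and 137199 in N2ΔMy libraries. All N2ΔMy values lay under all wt values, and in both genotypes the libraries of the second series were on average higher. The N2ΔMy mean was 59.0% of the wt mean, with a log2 fold change of -0.75 (SE 0.09, 95% interval -0.95 to -0.56, limma adjusted p = 0.0315). This call was lost in 11 of 16 alternative fits at fold changes of -0.85 to -0.66, among them the fit without the block (adjusted p = 0.88) and those without replicate 1, 3 or 4 (0.392, 0.141 and 0.435).

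Lyz1 (ENSMUSG00000069515.6, 117287797 to 117292868) was at 251, 246, 224 and 244 in wt and at 1848, 1773, 1723 and 2177 in N2ΔMy libraries. The 4 libraries of each genotype lay close together, and the groups were far apart. The N2ΔMy mean of 1880 ± 204 was 7.79 times the wt mean of 241 ± 11.9 (SD, n = 4 each), with a log2 fold change of 2.95 (SE 0.08, 95% interval 2.77 to 3.14, limma adjusted p = 9.0e-07). This was the call made in every alternative fit, with 2.86 in the first series and 3.05 in the second. Lyz1 made up 0.101% to 0.147% of the counts of both genes in wt and 1.44% to 1.81% in N2ΔMy libraries. Lyz1 thus remained far below Lyz2 in both genotypes, and both genes together were at 170228 to 234771 in wt and at 101915 to 139376 in N2ΔMy libraries.

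The same direction for Lyz1 was measured in the imiquimod groups, which share no library with the sham groups. Lyz1 was at 84 to 175 in wt and 659 to 1582 in N2ΔMy Ly6Chi cells after imiquimod, and at 31 to 48 and 1398 to 2512 in Ly6Clo cells. Lyz2 had log2 fold changes of -0.75 in sham Ly6Chi cells, -0.51 (SE 0.13) in imiquimod Ly6Chi cells and 0.35 in imiquimod Ly6Clo cells, of which only the first was called. The differences among these 3 values were tested for Ly6Chi cells only, where that between sham and imiquimod was 0.25 (SE 0.15).

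The stretches before the RefSeq starts of both genes are alike. The 250 bases before each start in RefSeq (GRCm38.p6, minus strand) are shown with differing or unaligned bases in capitals, since the Lyz2 promoter is the one that drives Cre and Lyz1 is the gene that rose. Of 252 aligned columns 200 (79.4%) were identical, among them the last 50 bases before the start. The annotations differ for Lyz2, whose GENCODE transcript begins further upstream, so that the last 49 bases of its stretch lie inside the gene as given above, against 0 for Lyz1.
Lyz1 upstream (chr10:117292869-117293118): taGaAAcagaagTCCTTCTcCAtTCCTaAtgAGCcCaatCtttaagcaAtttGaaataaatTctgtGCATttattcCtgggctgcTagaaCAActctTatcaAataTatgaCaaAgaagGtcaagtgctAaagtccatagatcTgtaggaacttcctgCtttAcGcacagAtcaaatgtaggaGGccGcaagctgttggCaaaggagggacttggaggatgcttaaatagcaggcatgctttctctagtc
Lyz2 upstream (chr10:117282273-117282522): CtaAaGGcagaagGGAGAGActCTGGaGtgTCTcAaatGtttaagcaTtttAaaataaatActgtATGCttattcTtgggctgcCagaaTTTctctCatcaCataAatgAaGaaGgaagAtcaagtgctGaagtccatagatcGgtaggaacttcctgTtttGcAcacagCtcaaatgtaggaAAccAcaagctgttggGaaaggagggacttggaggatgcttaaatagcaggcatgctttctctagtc

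Genes near the engineered loci were counted, since mice of a cross can also differ in the stretches that surround such loci. Within 5 Mb of Notch2, 8 of 104 tested genes were higher and 3 lower at an unadjusted p under 0.05, with a median log2 fold change of 0.00. Among them were S100a10, Ecm1, Cers2, Plekho1, Otud7b, Hist2h2bb and Bola1, higher, and AC092855.1, Prkab2 and Igsf3, lower, none of them called, and without the block 4 genes were higher and 0 lower. Leaving out replicate 1, 2, 3 or 4 gave 4, 9, 7 and 9 higher and 1, 1, 6 and 2 lower genes there. Within 5 Mb of Lyz2, 3 of 37 genes were higher (Lyz1, Cct2 and Rap1b) and 4 lower (Zfc3h1, Dyrk2, Mdm2 and RP24-420A20.8), and Lyz1 was the only one called. Within 5 Mb of Cx3cr1, which carries the reporter in both genotypes, 5 of 55 genes were higher (among them Ccr2, Zdhhc3, Rpl14 and Stt3b) and 3 lower (Golga4, Nktr and RP24-325N9.4), and without the block 3 were higher and 0 lower. Cx3cr1 itself, the fractalkine receptor that is low on classical and high on patrolling monocytes, was at 3005, 2626, 4063 and 3802 in wt and at 3952, 4223, 3579 and 4758 in N2ΔMy libraries (log2 fold change 0.31, SE 0.12, limma adjusted p = 0.35), higher in 3 of 4 pairs. Its difference was 0.54 in the first series and 0.07 in the second, 0.18 without replicate 2 and 0.47 without replicate 3.

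Apart from the genes of the altered loci themselves, those with the smallest p included several of monocytes and macrophages. Maf, a transcription factor of tissue macrophages, was at 1138, 1140, 1424 and 1538 in wt and at 1566, 1694, 2194 and 2093 in N2ΔMy libraries. The groups did not overlap, and the log2 fold change, 0.52 (SE 0.06, limma adjusted p = 0.0315), was under the size needed for a call. Without the block its adjusted p was 0.88. Lpl, lipoprotein lipase, was at 1421, 1789, 1630 and 1760 in wt and at 3175, 3673, 2108 and 3114 in N2ΔMy libraries (log2 fold change 0.85, SE 0.11, limma adjusted p = 0.071). Cd36, a scavenger receptor for lipids, was at 182, 149, 76 and 100 in wt and at 462, 223, 167 and 230 in N2ΔMy libraries (1.06, SE 0.17, adjusted p = 0.10). Lpl had no overlap between genotypes, whereas 1 N2ΔMy library overlapped the wt range of Cd36. Neither was called.

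Further genes among the first 10 by p in this direction were the chemokines Ccl6 and Ccl9, Hif1a, which codes for the oxygen-sensitive transcription factor, Tagln2, an actin-binding protein, and S100a10, a partner of annexin A2 and one of the genes within 5 Mb of Notch2. Their log2 fold changes lay between 0.33 (Ccl9) and 0.41 (S100a10). Each was higher in 4 of 4 pairs, which choosing genes by the p of the paired fit favours. Without the block their limma adjusted p lay between 0.70 (S100a10) and 0.94 (Ccl9). In wt libraries Ccl6 was at 10251, 10360, 12682 and 13045, and in N2ΔMy libraries at 13233, 15832, 15815 and 16083. The lowest N2ΔMy value of Ccl6 lay just above the highest wt value.

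In the lower direction, Nod1 and Tet2 had no overlap between genotypes. Nod1, a cytosolic sensor of bacterial peptidoglycan, was at 2842, 2454, 2391 and 2250 in wt and at 1822, 1755, 1365 and 1642 in N2ΔMy libraries (log2 fold change -0.597, SE 0.07, limma adjusted p = 0.0315), just under the size needed for a call. Tet2, an enzyme that oxidizes 5-methylcytosine, was at 4706, 4641, 5071 and 5049 in wt and at 3692, 3196, 3995 and 3480 in N2ΔMy libraries (-0.44, SE 0.05, adjusted p = 0.046). Neither reached the threshold without the block, where the adjusted p of both was 0.48. Ace, angiotensin-converting enzyme and a marker of patrolling monocytes, was at 8285, 7196, 6269 and 5974 in wt and at 5001, 2539, 3519 and 4191 in N2ΔMy libraries. Its N2ΔMy mean was 55.0% of the wt mean, and the log2 difference was -0.89 (SE 0.13, limma adjusted p = 0.089). Sat1, Adrbk2, Cyfip2, Rnf149 and Slc44a2 completed the 10, with log2 fold changes from -0.60 (Adrbk2, a kinase that desensitizes G protein-coupled receptors) to -0.31 (Slc44a2, a choline transporter). Each was lower in 4 of 4 pairs, which the choice by the paired fit again favours. Without the block their limma adjusted p lay between 0.48 (Adrbk2) and 0.95 (Sat1).

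Among patrolling monocyte genes, lower values in N2ΔMy cells were frequent, without a call. Of 22 such genes 20 were tested, and at an unadjusted p under 0.05 10 (50.0%) were lower and 1 (5.00%) higher, against 5.98% and 6.23% of all genes tested. The median log2 fold change was -0.22, against 0.01 over all genes, with -0.32 in the first series and -0.21 in the second. In 5 members all N2ΔMy libraries lay under all wt libraries, which was so for 1.73% of all genes tested. The 10 lower genes were Ace, Itgal, Cd300e, Hes1, Nr4a1, Treml4, Adgre4, Spn, Itgax and S1pr5. The paper names Hes1, Nr4a1, Ace, Cd274 and Itgb3, all members of the list, as enriched in wt against N2ΔMy Ly6Clo cells of this series. The list was thus not independent of genotype differences in these data. Leaving out replicate 1, 2, 3 or 4 gave 9, 9, 9 and 10 lower genes, and without the block there were 7, where 5.21% of all genes had an unadjusted p under 0.05 in either direction.

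Nr4a1, the nuclear receptor that patrolling monocytes need, was at 3877, 3548, 4923 and 4175 in wt and at 2762, 3270, 1802 and 2801 in N2ΔMy libraries. The groups did not overlap. The log2 fold change was -0.66 (SE 0.17, limma adjusted p = 0.25) over all pairs, -0.30 in the first series and -1.01 in the second, and -0.39 without replicate 3. Treml4, a receptor of patrolling monocytes, was at 273, 187, 158 and 89 in wt and at 174, 138, 65 and 64 in N2ΔMy libraries (-0.71, SE 0.20), lower in 4 of 4 pairs with overlapping groups. Itgax, which codes for CD11c, was at 115, 116, 117 and 84 in wt and at 50, 74, 80 and 62 in N2ΔMy libraries (-0.70, SE 0.22). Itgal, the integrin chain of LFA-1, was the most abundant of these genes, at 14611, 13042, 11560 and 11913 in wt and at 11945, 9359, 9948 and 9988 in N2ΔMy libraries (-0.31, SE 0.06). Spn codes for CD43, on which the sort selected, and its log2 fold change was -0.22 (SE 0.06). Clec4a3 was the gene of the list that was higher, at 0.20 (SE 0.05). Fcgr4 and Pglyrp1, also genes of patrolling monocytes, had log2 fold changes of 0.06 (SE 0.15) and 0.04 (SE 0.15).

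**Figure D3:**
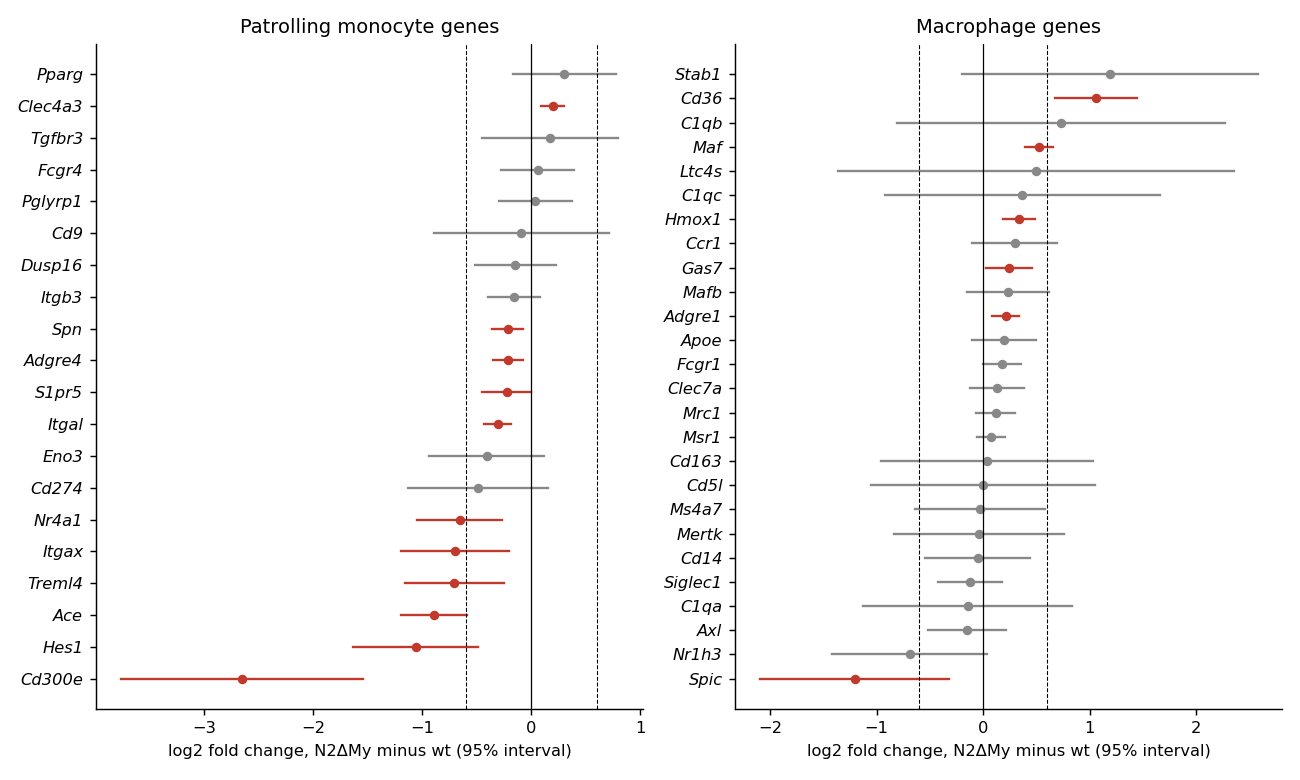
Log2 fold change of N2ΔMy minus wt Ly6Chi sham cells (horizontal axes) with its 95% interval for the tested genes of patrolling monocytes (left, 20 genes) and of macrophages (right, 26 genes), ordered by size. Red marks an unadjusted p under 0.05 and dashed lines mark 0.60 in either direction. In the patrolling list 10 of the 11 red genes lie below 0, and in the macrophage list 5 of 6 lie above 0.

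Among classical monocyte genes Ccr2 had the smallest p. Of 17 tested genes 3 were higher (Ccr2, S100a6 and S100a4) and 0 lower at an unadjusted p under 0.05, with a median log2 fold change of 0.07, and without the block 1 was higher. All N2ΔMy libraries lay above all wt libraries for 1 member, Ccr2, and for 1.42% of all genes tested. Ccr2, the chemokine receptor that lets these cells leave the bone marrow, was at 19471, 19284, 18528 and 19405 in wt and at 25496, 31411, 22178 and 24602 in N2ΔMy libraries. The wt libraries lay within a narrow range and all N2ΔMy libraries above it (log2 fold change 0.42, SE 0.07, limma adjusted p = 0.15). Ly6c2, the gene of the sort marker, was at 3500, 2906, 6209 and 7215 in wt and at 3358, 3168, 6403 and 8619 in N2ΔMy libraries, a difference between the series far above that between the genotypes (0.09, SE 0.06). Fn1, fibronectin and the highest of these genes, had a log2 fold change of 0.10 (SE 0.09), and the median of the list was 0.18 in the first series and 0.00 in the second.

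Of 32 macrophage genes 26 were tested, of which 5 (19.2%) were higher and 1 (3.85%) lower at an unadjusted p under 0.05, with a median log2 fold change of 0.15. That median was 0.28 in the first series and -0.05 in the second, and 0.01 without replicate 2. Besides Maf and Cd36, the higher genes were Hmox1 (log2 fold change 0.34, SE 0.07), which breaks down haem, Gas7 (0.25, SE 0.10) and Adgre1 (0.21, SE 0.05), which codes for F4/80. The paper names Maf, Cd36, Adgre1, Mertk, Fcgr1, Clec7a, Cd14 and C1qa, all members of this list, as higher in N2ΔMy Ly6Clo cells. This list too was thus not independent of genotype differences in these data. Spic, a transcription factor of red pulp macrophages, was lower, at 41, 39, 32 and 33 in wt and 9, 12, 31 and 15 in N2ΔMy libraries (-1.21, SE 0.39, limma adjusted p = 0.29). Timd4 and Vsig4, genes of resident macrophages, were listed at 0 in all 8 libraries, Lyve1 and Folr2 at 0 to 1, and C1qa at 0 to 6.

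Transcription factors of monocyte fate had differences in both directions in the fit with the block. Of 23 tested, 6 were higher and 7 lower at an unadjusted p under 0.05, with a median log2 fold change of -0.01. Leaving out replicate 1, 2, 3 or 4 gave 4, 3, 4 and 3 higher and 4, 6, 7 and 6 lower genes. Without the block 0 were higher and 3 lower. Runx2 had the smallest p, at 684, 598, 385 and 534 in wt and at 419, 326, 343 and 277 in N2ΔMy libraries (-0.67, SE 0.13, limma adjusted p = 0.18). Pou2f2, known for its part in patrolling monocytes, was at 3461, 3023, 6012 and 6727 in wt and at 2915, 2708, 5260 and 5066 in N2ΔMy libraries, where the difference between the series exceeded that between the genotypes (-0.25, SE 0.05). Runx1, Nr4a1, Bcl6, Tcf7l2 and Runx3 were the other lower genes. Cebpa, a factor of granulocyte and monocyte precursors, had the smallest p among the higher ones (0.37, SE 0.09), beside Cebpb, Klf2, Irf4, Nfe2 and Irf2.

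Cd74 and 4 MHC class II genes had log2 fold changes above 0 in N2ΔMy cells, none of them called, and none passed an unadjusted p of 0.05 without the block. Of 17 tested genes of antigen presentation and dendritic cells, 5 were higher and 1 lower (Clec9a) at an unadjusted p under 0.05, with a median log2 fold change of 0.12. Without the block 0 were higher and 0 lower. Cd74, the invariant chain, was at 9267, 11462, 5042 and 6371 in wt and at 11733, 13015, 7982 and 7535 in N2ΔMy libraries (0.36, SE 0.08, limma adjusted p = 0.18), higher in 4 of 4 pairs with overlapping groups. H2-Aa had a log2 fold change of 0.33 (SE 0.07), H2-Ab1 one of 0.27 (SE 0.09), H2-Eb1 one of 0.46 (SE 0.14) and H2-DMa one of 0.24 (SE 0.10). The sort took cells without MHC-II on the surface, so these transcripts were measured in cells gated against the protein.

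The other lists held 0 called genes. Of 29 interferon-stimulated genes 0 were higher and 3 lower (Oas2, Mx2 and Stat2), with a median of -0.05. Without replicate 3 these became 4 higher and 2 lower with a median of 0.02, and without replicate 4 they became 0 higher and 5 lower. Of 18 inflammatory genes 1 was higher (Ccl9) and 3 lower (Icam1, Tnfaip2 and Socs3), and of 19 Toll-like receptor genes 1 was higher and 1 lower. The latter were Tlr4, the receptor for lipopolysaccharide, at 0.47 (SE 0.12), and Tlr7, the receptor that imiquimod engages, at 2879, 3032, 3126 and 2932 in wt and 2453, 2317, 2324 and 2731 in N2ΔMy libraries (-0.29, SE 0.06, limma adjusted p = 0.20). Of 20 cell cycle genes 0 passed an unadjusted p of 0.05 in either direction, and of 16 immediate early genes 1 (Rhob) was higher. Among 18 survival genes Casp8 was higher and Bcl2 lower, the latter at 175, 187, 177 and 175 in wt and at 115, 81, 93 and 137 in N2ΔMy libraries (-0.77, SE 0.19, limma adjusted p = 0.23). Of 21 cytokine and growth factor receptors 2 were higher (Ifngr2 and Ifnar1) and 3 lower (Tgfbr1, Csf3r and Il17ra), and Csf1r, the receptor that monocytes depend on, had a log2 fold change of -0.04 (SE 0.05). Of 19 chemokine receptors and adhesion molecules 4 were higher (among them Ccr2, Cx3cr1 and Selplg) and 3 lower (Itgal, Itga4 and S1pr5). Without the block these counts fell to 0 higher and 1 lower for interferon-stimulated genes, 0 and 2 for inflammatory genes, 0 and 1 for cytokine and growth factor receptors, and 2 and 1 for chemokine receptors and adhesion molecules, and Rhob and Casp8 no longer passed.

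**Figure D4:**
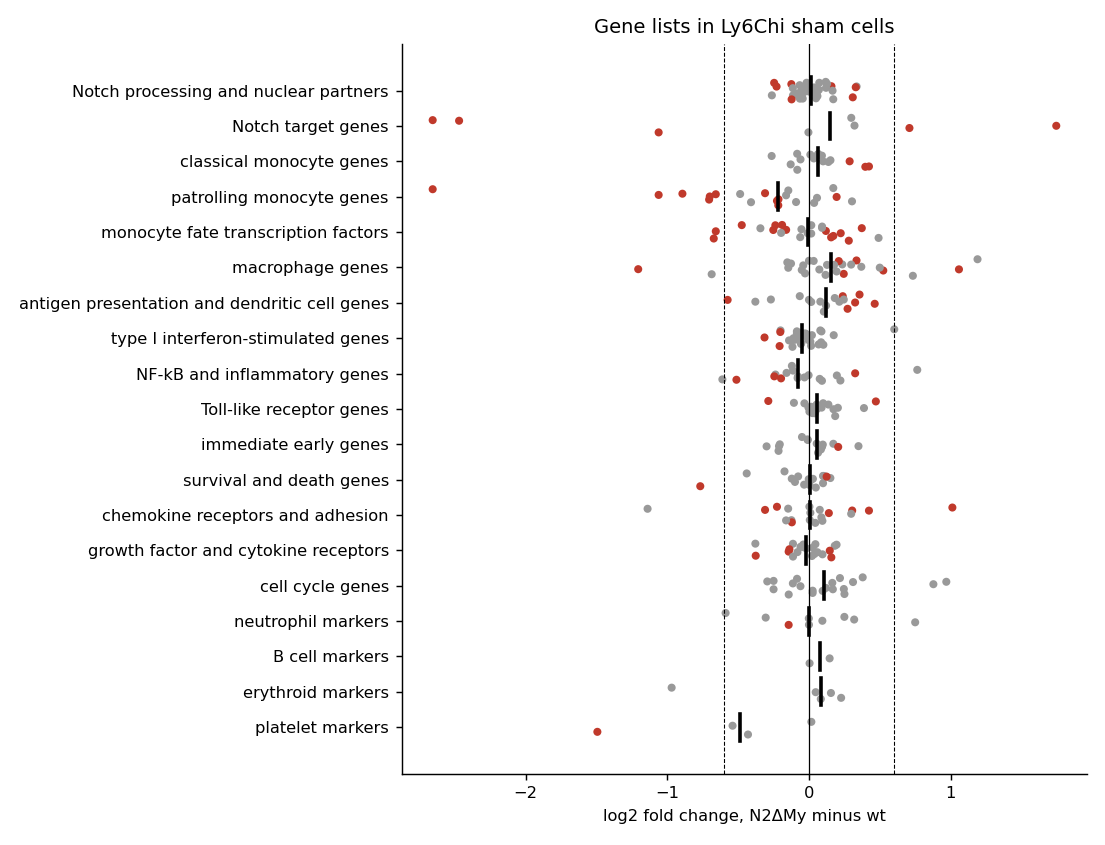
Log2 fold change of N2ΔMy minus wt Ly6Chi sham cells (horizontal axis) for each tested member of 19 gene lists (rows), with the median of each list as a black bar. Red marks an unadjusted p under 0.05, the vertical spread of points within a row has no meaning, and dashed lines mark 0.60 in either direction. Medians lie between -0.22 (patrolling monocyte genes) and 0.15 (macrophage genes), apart from the 4 tested platelet markers, at -0.485.

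The genotype difference was set beside that of Ly6Chi cells after imiquimod, from 8 other libraries. The interaction of genotype and treatment over these 16 libraries called 0 genes by limma, with 380 genes (3.38%) at an unadjusted p under 0.05. Of the 700 genes higher in N2ΔMy sham cells at an unadjusted p under 0.05, 607 (86.7%) were also higher after imiquimod, and of the 672 lower ones 590 (87.8%) were also lower, against 53.0% and 47.0% of all genes tested. Sham and imiquimod libraries of the same number share a library series, and the part of this in the shared directions was not tested. The 10 higher and 10 lower genes with the smallest p in sham cells, among those with a group mean of at least 50, all had the same direction after imiquimod. Imiquimod Ly6Chi cells had 54 called genes (0.481%), among them Maf (log2 fold change 0.84), Lpl (1.27), Cd36 (1.41), Ace (-1.28) and Runx2 (-0.82). Without the block 3 genes were called there, with 2 in the first series alone and 1 in the second, so that this count rests on the block. For the patrolling genes the median was -0.68 after imiquimod, with 14 lower and 1 higher, against 6.69% and 8.15% of all genes tested. The difference from sham was itself tested for each gene, and 1 patrolling gene, Dusp16, had an unadjusted p under 0.05 for it (adjusted p = 1.00).

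**Figure D5:**
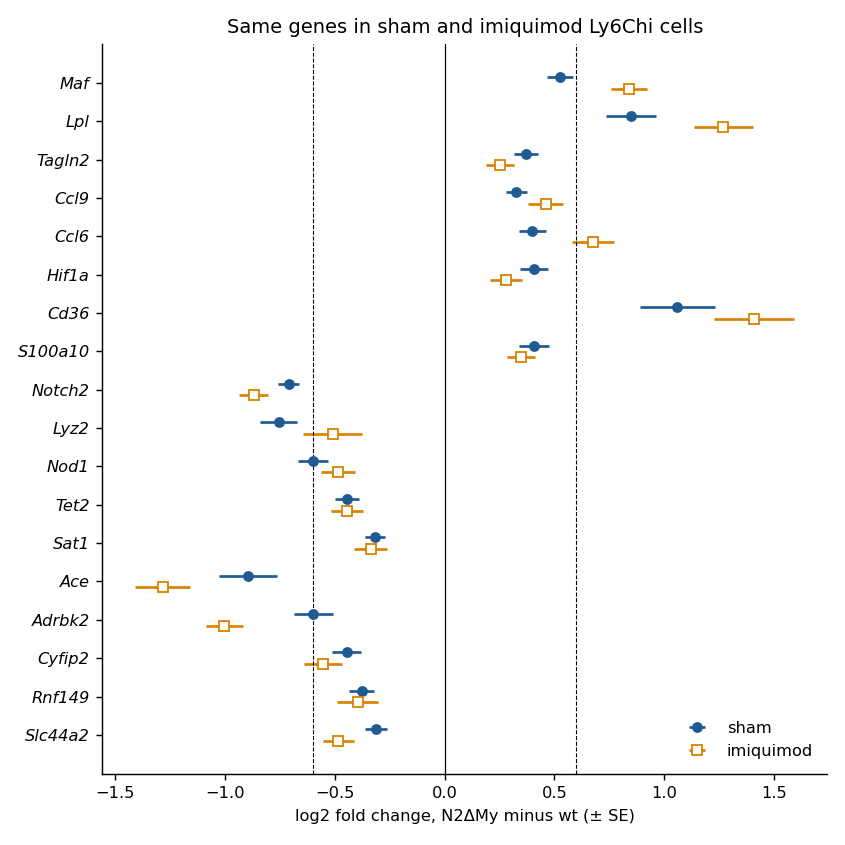
Log2 fold change of N2ΔMy minus wt Ly6Chi cells (horizontal axis, ± SE) after sham (filled circles) and imiquimod (open squares) for 18 genes among the 10 with the smallest p in each direction in sham cells, from 8 libraries each. Not all 20 are drawn, Lyz1, at 2.95 and 3.06, being left out for scale, dashed lines mark 0.60, and the imiquimod value lies on the same side of 0 as the sham value for every gene shown.

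The same genes were placed on the difference between wt Ly6Clo and wt Ly6Chi cells after imiquimod, again from libraries other than the sham ones. Of the 672 genes lower in N2ΔMy sham cells, 485 (72.2%) were higher in Ly6Clo than in Ly6Chi wt cells, against 49.4% of all genes tested, and their median log2 difference there was 0.29. Of the 700 genes higher in N2ΔMy sham cells, 443 (63.3%) were lower in Ly6Clo cells, against 50.6% of all genes. Of the 10 lower genes first by p, 9 were higher in wt Ly6Clo cells, Lyz2 being the exception, and among the 10 higher ones 9 were lower there, Cd36 being the exception. Ace, for example, differed by 2.48 and Cyfip2 by 2.22 on the log2 scale in favour of Ly6Clo cells, and S100a10 by -2.69.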

How the data were processed

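The authors aligned 75-base single reads of stranded total RNA libraries (SMARTer Pico v2) to GRCm38.p6 with STAR 2.5.3a after Trim Galore 0.4.4, and counted them on GENCODE genes in an nf-core pipeline. The deposited values are scores, the counts normalized with DESeq2 by the authors and rounded to whole numbers, so no count model was used. The table also holds the authors' fold changes, their errors and p-values and a mean, which were not used. The 8 libraries were grouped by their labels. The analysis used limma 3.58.1 in R 4.3.3 (lmFit, eBayes with trend) on log2(value + 1) with the replicate number as a fixed block, two-sided. The numbers were taken to pair the samples, although the sample titles give only a replicate number. Same-numbered wt and N2ΔMy libraries deviated from their group means together (correlation across genes 0.374 to 0.464). Differently numbered ones reached at most 0.339, and within the series the correlations were 0.180 and 0.127. How much of this is the shared library series was not tested, and every statement about pairs rests on these numbers. The fit was also run on simulated data, the outcome of which is not reported here. The labels call the replicates biological, and whether each is 1 mouse is not given. No intervals from counts were formed, since raw counts were not used. The interaction was fitted on the 16 Ly6Chi libraries. The gene lists and the comparison were chosen with earlier results of these data known. Genes are named if called, if among the 10 with the smallest p in each direction with a group mean of at least 50, or as members of 26 lists, with those within 5 Mb of the altered loci named at an unadjusted p under 0.05. A few genes that this rule names are not reported here. Alternatives changed the block, scaling, pseudocount, filter, trend, libraries in the fit and series. Windows of 75 bases were taken from GENCODE M21 transcripts. Python 3.11.15 with pandas 2.3.3, numpy 2.4.6, matplotlib 3.10.9 and biopython 1.88 gave the tables and plots.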

Additional observations from a re-analysis of the deposited data

Results flagged for a closer look

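Of 76 groups of 4 libraries, 2 for each of 38 genes, 6 had 1 library apart from the other 3 (Dixon's test at 95%). Chance gives about 1 in 20. In wt cells these were the highest library of Cd300e (54), of Bcl2 (187) and of S100a10 (2106) and the lowest of Itgax (84). In N2ΔMy cells they were the lowest library of Ccl6 (13233) and of C3ar1 (117). C3ar1, a complement receptor, was called only in 2 alternative fits.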

How the results depend on the processing

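The main count of 3 called genes in sham cells became 21 with a minimum of 50 in at least 4 libraries of the fit, 10 with all 24 libraries in 1 fit, and 1 without the trend or within the first or second library series alone. Without replicate 1, 2, 3 or 4 it was 2 to 3, and it was 2 without the replicate block, where 585 genes had an unadjusted p under 0.05 (1372 with it), and also 2 with the series as a covariate. The 21 genes were tested among 9618, and included Ace, Cd36, Lpl, Runx2 and C3ar1 beside the 3 called. Notch2 kept its direction in all 16 alternatives (-0.75 to -0.67) and lost its call without the trend (-0.71, adjusted p = 0.35) and within the first (-0.67, adjusted p = 0.86) and second series (-0.75, adjusted p = 0.68), where 2 libraries a group were left. Without the block its adjusted p was 0.041. Lyz2 was called in 5 alternatives and lost its call in 11, with adjusted p-values of 0.056 to 0.88 there, without replicates 1, 3 and 4 among them. Lpl was called without replicate 3 (1.01, adjusted p = 0.0098). The difference of Notch1, near 0, lay between -0.054 and 0.038 when 1 replicate was left out, positive without replicate 4, and was 0.028 within the first series. The interaction called 0 genes in every alternative. Of 605 gene results under alternatives, 577 kept direction and call, 14 lost a call, 12 gained one and 2 changed sign. The cause of these changes was not tested. With scaling by TMM, patrolling genes numbered 9 lower and 1 higher, and 771 genes were higher and 627 lower at an unadjusted p under 0.05. For 65.8% of genes the 95% interval lay inside -0.60 to 0.60, and among the others an uncalled gene may differ by the called size.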
